A study of Mus musculus with 6 samples.

Results

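The colony-stimulating factors and their receptors were followed as a set of 8 genes, Csf1, Il34, Csf1r, Csf2, Csf2ra, Csf2rb, Csf3 and Csf3r, picked by symbol from the 17191 genes of the deposited tables. All 8 were present, and all 8 passed the low-count filter that left 12721 genes for testing. The set was proposed with the comparison of TP-18 with vehicle in view, because Csf1 is among the few genes called in it, so the values of the 8 genes are given as a description without a test of their own. Messenger RNA came from cells of tumours that the mouse colorectal carcinoma line CT26 formed under the flank skin of female BALB/c mice, which were 6 to 8 weeks old. Treatment began at tumour volumes of 100 to 200 mm3 and lasted 3 weeks. The vehicle group has 3 libraries, and the other 3 are from mice dosed with TP-18 at 50 mg/kg by mouth once a day. TP-18 is a code name, and the labels give no genetic change for the mice of either group. The labels name 3 different sources for the RNA. The design text names macrophages sorted by flow cytometry for CD11b, F4/80 and CD206, the treatment protocol names CD11b+ cells taken on magnetic beads, and CT26 itself is the cell type in the sample characteristics. No label ties each library to a mouse of its own, and the spread behind each p-value may therefore be technical.

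CSF1 (M-CSF) and IL-34 are the ligands of CSF1R, a receptor tyrosine kinase on which most tissue macrophages depend for survival and proliferation. GM-CSF, the product of Csf2, binds a receptor made of its own alpha chain (Csf2ra) and the common beta chain (Csf2rb), which is shared with the receptors for IL-3 and IL-5. G-CSF, the product of Csf3, acts through CSF3R, which is found mainly on neutrophils and their precursors. In tumours these factors are known for recruiting and sustaining myeloid cells.

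Total counts were 16371128 to 17597645 per library, and log2 CPM values (CPM is the read count relative to the library total, here scaled by TMM, a factor that corrects for composition) correlated at 0.952 to 0.978 within groups and at 0.941 to 0.974 between groups. The 9 macrophage markers summed to 3453 to 7358 CPM in vehicle and 3944 to 5722 CPM in TP-18 libraries, with none at 0. Itgam, which encodes CD11b, stood at 913, 803 and 1319 CPM in vehicle replicates 1, 2 and 3 and at 815.5, 835 and 1019 CPM in TP-18 replicates 1, 2 and 3. In the carcinoma list Krt20 made up nearly all of the sum (436 ± 92.1 CPM in vehicle, 415 ± 152 in TP-18, SD, n = 3 each), while Krt19 and Epcam were at or near 0. In bulk RNA, fewer cells of a type and less RNA per cell cannot be told apart.

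Of the 8 genes, Csf1 alone was called lower in TP-18 libraries (12.5% of the set) and 0 were called higher, beside 0.0865% and 0.0236% of all tested genes (0.11% in either direction), by edgeR's quasi-likelihood test with Benjamini-Hochberg adjustment. With DESeq2 3 of the 8, Csf1, Csf2 and Csf3, were called lower and 0 higher, beside 2.51% and 1.18% of the 13522 genes to which it gave an adjusted p. The set was chosen on this contrast, so nothing is read from these shares. Every TP-18 library lay below every vehicle library for 3 of the 8 genes, the ligand genes Csf1, Csf2 and Csf3, and above for 0, beside 11.7% and 11.6% of all tested genes. The median log2 fold change of the 8 genes was -0.62, and that of all tested genes was 0.02. The receptor genes Csf1r and Csf3r and the ligand gene Il34 had log2 fold changes near 0. Csf2ra and Csf2rb lay between, with negative values and overlapping groups.

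**Figure D1:**
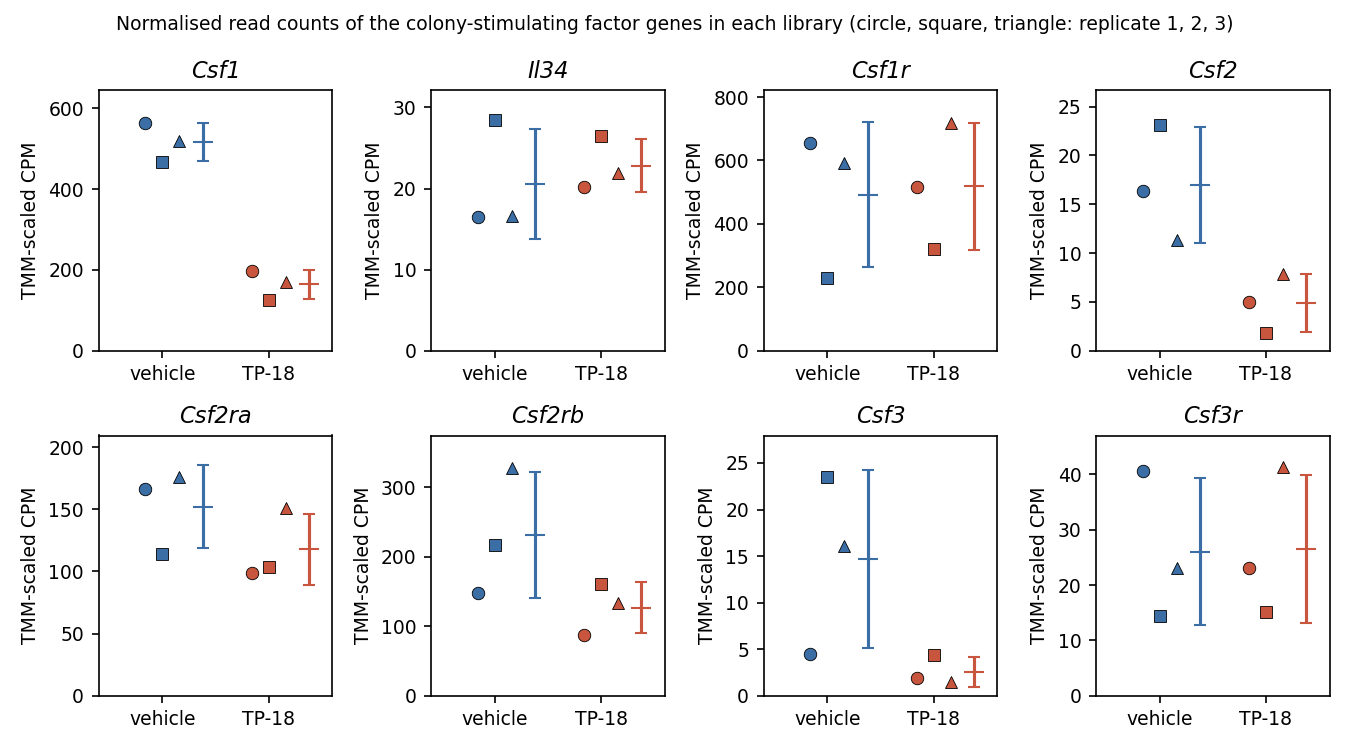
TMM-scaled CPM of each gene in the 3 vehicle and 3 TP-18 libraries, with the mean and SD of each group as a bar beside the points; each panel has its own axis from 0. The groups lie apart for Csf1, Csf2 and Csf3 and overlap for the other 5 genes.

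Csf1, Entrez 12977, lies on the minus strand of chromosome 3 at 107741048 to 107760469 (GRCm38, GENCODE M21, protein-coding). The 250 bases before its start in RefSeq (GRCm38.p6), chr3:107760470-107760719 on the minus strand, are shown because they hold a match to a kappaB site, the element bound by NF-kB. The capitals mark that match, which reads GGGACTTTCC on the strand opposite to the gene, at -154 to -145 from the start site.
Csf1: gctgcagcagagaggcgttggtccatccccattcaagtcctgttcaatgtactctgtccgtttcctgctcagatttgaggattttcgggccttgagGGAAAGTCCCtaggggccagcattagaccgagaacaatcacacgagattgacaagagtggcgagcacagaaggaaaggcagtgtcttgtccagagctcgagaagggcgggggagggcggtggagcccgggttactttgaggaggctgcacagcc
On either strand, these letters occur in 46 of 32851 RefSeq promoter windows of that length (0.14%). They were read from the Csf1 window itself, so that share is no measure of specificity. The looser kappaB consensus, which includes them, occurs in 1281 windows (3.9%). The Csf1 window also holds 2 GC boxes (GGGCGG), at -51 to -46 and -41 to -36, a motif found in 32.7% of windows. It holds no AP-1 (TGANTCA), C/EBP (TTNNGNAA) or PU.1 (GAGGAA) match, motifs present in 6.75%, 36.8% and 23.3% of windows. These matches describe letters and not binding.

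Csf1, the macrophage growth factor, was at 563, 468 and 518 CPM in vehicle replicates 1, 2 and 3. It was at 196, 126 and 171 CPM in the TP-18 replicates. The groups did not overlap, and the highest TP-18 library lay well under the lowest vehicle library. The raw counts were large, from 7433 to 9157 reads in vehicle and from 2320 to 3640 in TP-18 libraries. The means of 516 ± 47.6 and 164 ± 35.6 CPM (SD, n = 3 each) differ 3.14-fold, a log2 fold change of -1.65 ± 0.19 (SE). Its edgeR adjusted p, the value that put Csf1 among the called genes, was 0.0428, close under the threshold of 0.05. Leaving out any 1 of the 6 libraries ended the call, with edgeR adjusted p from 0.0758 without vehicle 1 to 0.1905 without TP-18 1, and log2 fold changes from -1.80 to -1.49. Csf1 had the smallest spread of the set in vehicle, where the highest library was 1.20 times the lowest.

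Of 9187 genes with a mean of at least 10 CPM, the 5 whose profile over the 6 libraries was most like that of Csf1 were Hspa1b, Sema4b, Ifrd1, Lif and Traf1. Likeness was the root mean square difference of log2 CPM after centring each gene on its mean, which was 0.09 for Hspa1b and 0.19 to 0.24 for the other 4. Hspa1b, an inducible chaperone, had 1014, 793 and 1034 CPM in vehicle and 364, 256 and 335 CPM in TP-18 replicates 1, 2 and 3. Like Csf1, it was lowest in replicate 2 of each group. Lif, a cytokine of the interleukin-6 family, had 117, 83.2 and 87.3 CPM in vehicle and 26.4, 28.2 and 33.2 CPM in TP-18 replicates. Ifrd1, a transcriptional coregulator, had 1235, 1410 and 1355 CPM in vehicle and 584, 406 and 606 CPM in TP-18 replicates. All 5 genes were lower in every TP-18 library than in every vehicle library, so the likeness includes the difference between groups. The count of Hspa1b is uncertain, because its neighbour Hspa1a is nearly identical.

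Il34, Entrez 76527, the other ligand of CSF1R, lies on chromosome 8 at 110741829 to 110805924 on the minus strand (GRCm38, GENCODE M21). It was at 16.5, 28.4 and 16.7 CPM in vehicle replicates and at 20.2, 26.4 and 21.9 CPM in TP-18 replicates. Replicate 2 was the highest library of each group, and the groups overlapped. The means were 20.6 ± 6.83 and 22.8 ± 3.24 CPM (SD, n = 3 each), and the fitted log2 fold change was 0.15 ± 0.25 (SE). Its exons share 97 bases with Gm15894 and Gm15895 on the opposite strand, and since strand use in counting is not given, reads there cannot be told apart. Per length, Csf1 outweighed Il34 in every library. Csf1 made up 95.3%, 90.8% and 94.9% of the summed FPKM (fragments scaled for gene length and library total) of the 2 ligands in vehicle replicates and 85.4%, 74.1% and 82.4% in TP-18 replicates. The FPKM ratio of Csf1 to Il34 ran from 9.90 to 20.5 in vehicle and from 2.87 to 5.86 in TP-18 libraries, without overlap.

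Csf1r, Entrez 12978, on chromosome 18 at 61100598 to 61132149 on the plus strand (GRCm38, GENCODE M21), encodes the receptor of both ligands. It was at 656, 229.7 and 590.4 CPM in vehicle replicates and at 515, 320.2 and 719 CPM in TP-18 replicates. The groups overlapped, and replicate 2 was the lowest library of each group. The means were 492 ± 229 and 518 ± 199 CPM (SD, n = 3 each), and the fitted log2 fold change was 0.07 ± 0.42 (SE). The highest library was 2.85 times the lowest in vehicle and 2.24 times in TP-18, so the spread between libraries of a group was larger than the difference between groups. The log2 fold change was -0.28 without vehicle 2 and 0.33 without TP-18 2. The exons of Csf1r share 873 bases with Hmgxb3 on the opposite strand.

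The macrophage markers did not share 1 profile over the libraries, and 4 of the 9, Adgre1, C1qa, C1qb and C1qc, were lowest in replicate 2 of each group, as Csf1r was. Adgre1, which encodes F4/80, had 295, 99.9 and 181 CPM in vehicle replicates and 209, 108 and 257 CPM in TP-18 replicates. C1qa, a complement subunit made by macrophages, had 1536, 468 and 1670 CPM in vehicle and 1069, 633 and 1249 CPM in TP-18 replicates. The other 5 differed from Csf1r in this. Fcgr1, an Fc receptor, was at 113, 147 and 101 CPM in vehicle replicates, highest where Csf1r was lowest. Mertk, a receptor for dying cells, at 94.2, 143.5 and 55.2 CPM in TP-18 replicates, and Mrc1, at 630, 898 and 799 CPM there, were highest in TP-18 2, where Csf1r was lowest. Cd68 and, in TP-18 libraries, Itgam were lowest in replicate 1. The FPKM ratio of Csf1r to Adgre1 ran from 1.92 to 2.82 in vehicle and from 2.13 to 2.56 in TP-18 libraries, and that of Csf1r to C1qa from 0.0987 to 0.137 and from 0.134 to 0.161. Against Itgam the ratio was 0.868, 0.346 and 0.541 in vehicle and 0.763, 0.463 and 0.852 in TP-18 replicates, also with overlap. The 5 genes most like Csf1r over the 6 libraries were Fgd3 at a root mean square log2 difference of 0.09, Cyth4 at 0.12, Camk1d at 0.14, and Naaa and Ptprc at 0.15. Ptprc, which encodes the leukocyte antigen CD45, had 284, 115 and 231 CPM in vehicle and 186, 145 and 300.2 CPM in TP-18 replicates. Its log2 fold change was 0.00.

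With ligand and receptor set against each other within a library, the FPKM ratio of Csf1 to Csf1r was 0.729, 1.73 and 0.745 in vehicle and 0.324, 0.334 and 0.202 in TP-18 replicates. The lowest vehicle ratio exceeded the highest TP-18 ratio. Vehicle 2, the library with the least Csf1r, had the highest ratio. The ratio does not depend on how libraries were scaled.

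**Figure D2:**
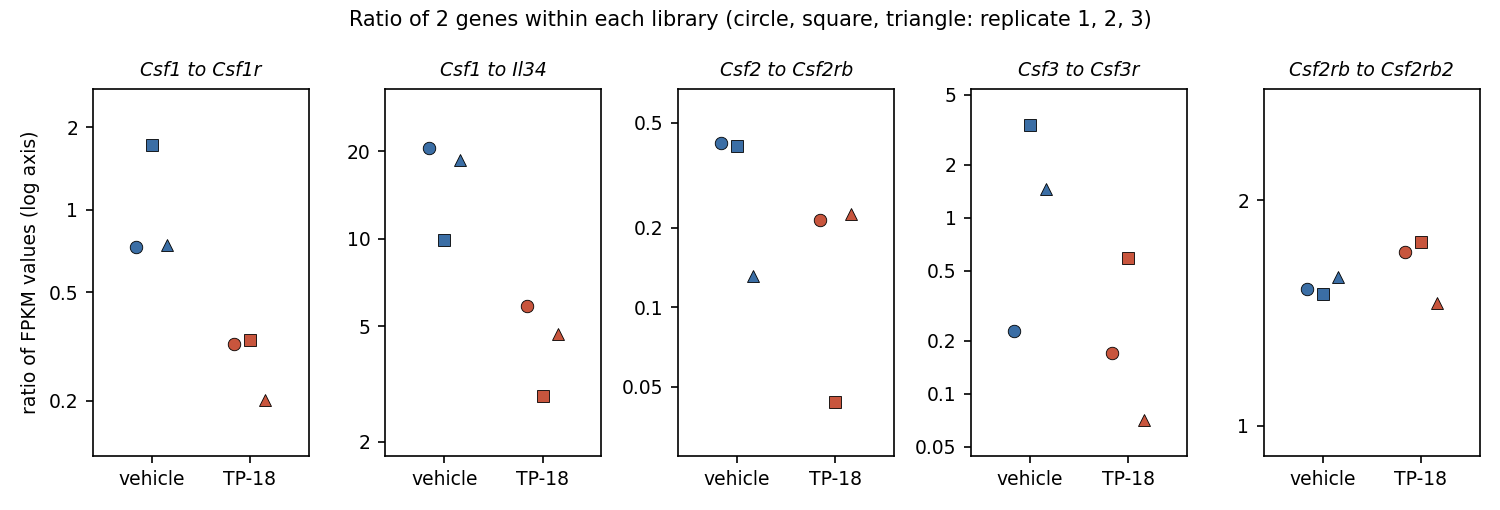
Ratio of deposited FPKM values of 2 genes within each library, on log axes with a separate range per panel. The ratios of Csf1 to Csf1r and of Csf1 to Il34 lie apart between the groups, while those of Csf2 to Csf2rb, Csf3 to Csf3r and Csf2rb to Csf2rb2 overlap.

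Csf2, Entrez 12981, which encodes GM-CSF, lies on chromosome 11 at 54247271 to 54249667 on the minus strand (GRCm38, GENCODE M21). It was at 16.4, 23.2 and 11.3 CPM in vehicle replicates and at 4.96, 1.85 and 7.86 CPM in TP-18 replicates. The groups did not overlap, and vehicle 2 was the highest and TP-18 2 the lowest of the 6 libraries. These values rest on 266, 368 and 171 reads in vehicle and 92, 34 and 144 reads in TP-18 replicates. The means of 16.9 ± 5.94 and 4.89 ± 3.01 CPM (SD, n = 3 each) differ 3.46-fold, a log2 fold change of -1.79 ± 0.50 (SE). Its standard error was more than 2 times that of Csf1. Exons of Csf2 share 96 bases with Gm12223 on the opposite strand.

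The RefSeq start of Csf2 lies 232 bases upstream of the GENCODE start, and the 250 bases before it, chr11:54249900-54250149 on the minus strand, hold no match to the kappaB consensus. No capitals appear because no kappaB match was found in these letters. The 232 bases before the GENCODE start lie outside the window and were not searched. For Csf1 the RefSeq and GENCODE starts coincide, so the windows of the 2 genes are not alike in place. Whether Csf2 has a kappaB site nearer its GENCODE start is therefore not known from this search.
Csf2: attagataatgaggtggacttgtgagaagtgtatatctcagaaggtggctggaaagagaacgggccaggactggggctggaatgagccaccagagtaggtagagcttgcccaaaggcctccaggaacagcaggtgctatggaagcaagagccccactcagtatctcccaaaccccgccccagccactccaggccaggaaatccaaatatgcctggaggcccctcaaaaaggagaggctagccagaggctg
It holds a C/EBP match at -145 to -138 and a GC box at -77 to -72, both on the opposite strand. Of the 8 genes, windows were also matched for Csf2ra, with a C/EBP match, 2 PU.1 matches and a GC box, and for Csf3r, with a PU.1 match at -86 to -81. Neither holds a kappaB match. Csf1r was left out of the search, and no window was available for Il34, Csf3 and Csf2rb, so the set cannot be compared for this site.

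Csf2ra, Entrez 12982, the alpha chain that binds GM-CSF, lies on chromosome 19 at 61223957 to 61228429 on the minus strand (GRCm38, GENCODE M21). It was at 166.5, 114 and 176 CPM in vehicle replicates and at 98.8, 104 and 151 CPM in TP-18 replicates. Vehicle 2 and TP-18 3 made the groups overlap. The means were 152 ± 33.4 and 118 ± 28.6 CPM (SD, n = 3 each), and the fitted log2 fold change was -0.37 ± 0.23 (SE).

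Csf2rb, Entrez 12983, the signalling beta chain, lies on chromosome 15 at 78325752 to 78353847 on the plus strand (GRCm38, GENCODE M21). It was at 148, 216 and 328 CPM in vehicle replicates and at 87.8, 160.1 and 133 CPM in TP-18 replicates. Vehicle 1 lay below TP-18 2, so the groups overlapped by that library. The means were 231 ± 90.9 and 127 ± 36.5 CPM (SD, n = 3 each), and the fitted log2 fold change was -0.86 ± 0.32 (SE). The value was -0.54 without vehicle 3, the highest library, and -1.13 without vehicle 1, the lowest of its group.

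Mice carry a near copy of the beta chain, Csf2rb2, which encodes the IL-3-specific beta chain, on chromosome 15 at 78282507 to 78305721 on the minus strand. Its coding sequence in GENCODE M21 was 95.2% identical to that of Csf2rb over the aligned bases, and the longest run without a difference was 242 bases. Of all 50-base words in the coding sequence of Csf2rb, 26.0% also occur in Csf2rb2, as do 6.49% of its 150-base words. Reads from those stretches cannot be assigned to either gene, so both counts are uncertain. The 60 bases in which the 2 coding sequences differ most, from base 304 of Csf2rb and base 307 of Csf2rb2, show where reads can be told apart, with the 13 differing bases in capitals.
Csf2rb: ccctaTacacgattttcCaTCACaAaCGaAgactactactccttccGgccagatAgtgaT
Csf2rb2: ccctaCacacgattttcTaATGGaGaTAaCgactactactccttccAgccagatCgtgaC
Csf2rb2 was at 94.6, 140.0 and 202 CPM in vehicle and at 50.1, 88.4 and 88.5 CPM in TP-18 replicates, without overlap, with a log2 fold change of -0.94 ± 0.32 (SE). It ranked the vehicle libraries in the same order as Csf2rb. The FPKM ratio of Csf2rb to Csf2rb2 stayed between 1.46 and 1.76 in all 6 libraries.

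Within libraries, the FPKM ratio of Csf2 to Csf2ra was 1.02, 2.12 and 0.670 in vehicle and 0.523, 0.185 and 0.544 in TP-18 replicates, without overlap. That of Csf2 to Csf2rb was 0.419, 0.407 and 0.131 in vehicle and 0.215, 0.0438 and 0.225 in TP-18 replicates, and vehicle 3 brought the groups into overlap. The ratio to the alpha chain was thus lower in every TP-18 library, and that to the beta chain was not. The size of the ratio to the alpha chain, though not its order over libraries, depends on the length used for Csf2ra. The deposited FPKM imply 13359 bases, 4.65 times its exon length. With GENCODE exon lengths the means of Csf2 and Csf2ra were 19.9 and 49.8 FPKM in vehicle and 6.50 and 43.6 FPKM in TP-18 libraries.

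Csf3, Entrez 12985, which encodes G-CSF, lies on chromosome 11 at 98701263 to 98703629 on the plus strand (GRCm38, GENCODE M21). It was at 4.49, 23.5 and 16.1 CPM in vehicle replicates and at 1.89, 4.34 and 1.42 CPM in TP-18 replicates. The groups were apart by a narrow margin, with vehicle 1 just above TP-18 2. On the deposited FPKM scale, which uses unscaled totals, vehicle 1 (2.23 FPKM) lay below TP-18 2 (2.39 FPKM), so that the groups overlapped. The gene was counted by 73, 373 and 243 reads in vehicle and 35, 80 and 26 reads in TP-18 replicates. The means of 14.7 ± 9.57 and 2.55 ± 1.57 CPM (SD, n = 3 each) differ 5.76-fold, a log2 fold change of -2.52 ± 0.65 (SE), the largest size and the largest error in the set. It ran from -3.14 without TP-18 2 to -2.03 without vehicle 2. Csf3 had the widest spread in vehicle of the 8 genes, with the highest library at 5.23 times the lowest.

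Csf3r, Entrez 12986, the G-CSF receptor, lies on chromosome 4 at 126024550 to 126044440 on the plus strand (GRCm38, GENCODE M21). It was at 40.7, 14.5 and 23.0 CPM in vehicle replicates and at 23.0, 15.2 and 41.3 CPM in TP-18 replicates. The groups covered the same range, with means of 26.1 ± 13.4 and 26.5 ± 13.4 CPM (SD, n = 3 each) and a log2 fold change of 0.02 ± 0.45 (SE). The value was 0.48 without vehicle 1 and -0.45 without TP-18 3, the libraries with the most Csf3r. Neutrophil markers, the genes of the cells that carry most of this receptor, summed to 15.5 CPM in vehicle 1, where Csf3r was highest in its group, and to 216 CPM in vehicle 2, where it was lowest. In TP-18 libraries the neutrophil sum was 40.1, 121 and 27.7 CPM, again highest where Csf3r was lowest. S100a8 and Mmp8 made up most of it, 4 of its 10 genes in the table were at 0 in some library, and their part in the level of Csf3r was not tested. The FPKM ratio of Csf3 to Csf3r was 0.228, 3.36 and 1.45 in vehicle and 0.170, 0.592 and 0.0712 in TP-18 replicates, with overlap through vehicle 1.

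**Figure D3:**
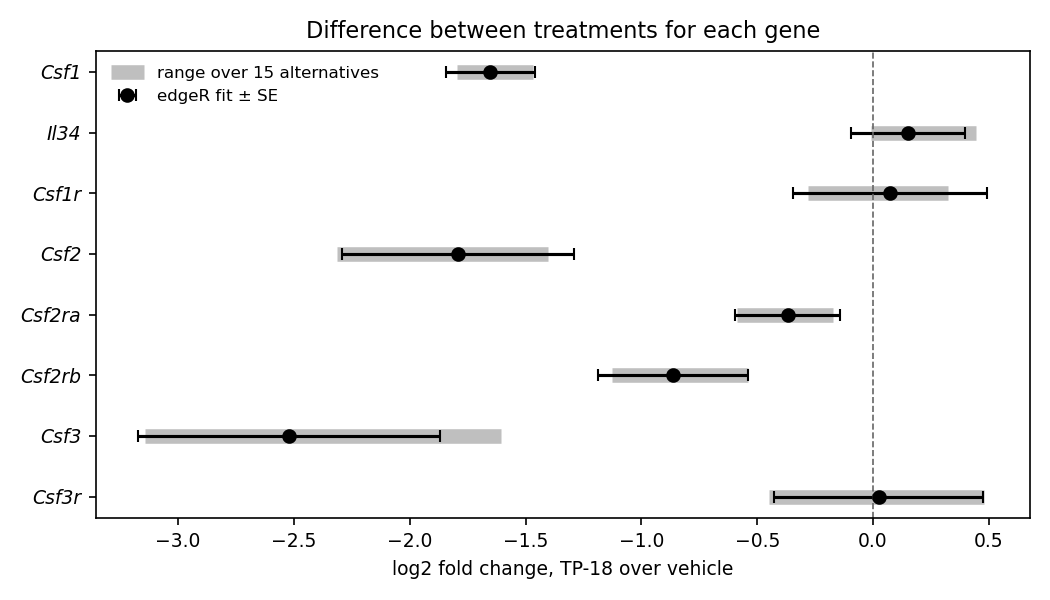
Log2 fold change of TP-18 over vehicle for each gene from the edgeR fit, with its SE as a line, over a grey bar for the range across 15 other settings (scaling, filter, test, pseudocount, replicate block, each library left out). The bars of Csf1, Csf2, Csf2ra, Csf2rb and Csf3 stay below 0, and those of Il34, Csf1r and Csf3r reach across it.

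Levels of different genes were compared per length, as deposited FPKM. In vehicle libraries the order by mean was Csf1r (120 ± 56.7 FPKM, SD, n = 3), Csf1 (106 ± 11.5), Csf2rb (44.3 ± 16.6), Csf2 (12.4 ± 4.37), Csf2ra (10.7 ± 2.37), Csf3 (7.07 ± 4.58), Il34 (7.02 ± 2.30) and Csf3r (6.14 ± 3.27). Csf1r and Csf1 overlapped at the top, Csf2rb stood apart from both neighbours, and each of the lower 5 genes overlapped the next. In TP-18 libraries Csf1r led at 142 ± 55.1 FPKM, apart from Csf1 at 38.2 ± 8.11, which overlapped Csf2rb at 27.7 ± 8.09. Below came Csf2ra (9.38 ± 2.33), Il34 (8.83 ± 1.29), Csf3r (7.03 ± 3.59), Csf2 (4.05 ± 2.51) and Csf3 (1.40 ± 0.865), each overlapping the next. Among all 17191 genes by mean FPKM, Csf1 ranked 609 in vehicle and 1752 in TP-18 libraries, while Csf1r ranked 544 and 431. Csf2 ranked 4520 and 8455, and Csf3 ranked 6356 and 10477.

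The place of Csf2ra depends on its length. The FPKM file implies 13359 bases for Csf2ra, longer than its whole GENCODE gene span of 4473 bases and 4.65 times its exon length of 2871. For the other 7 genes this quotient ran from 0.67 to 1.604. With GENCODE exon lengths, a choice made after seeing this, Csf2ra had 49.8 ± 11.03 FPKM in vehicle and 43.6 ± 10.8 in TP-18 libraries. It then took rank 3 in vehicle and rank 2 in TP-18, above Csf2rb in both. Csf1 took rank 1 in vehicle at 92.0 ± 9.95 FPKM, overlapping Csf1r at 80.3 ± 38.1.

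**Figure D4:**
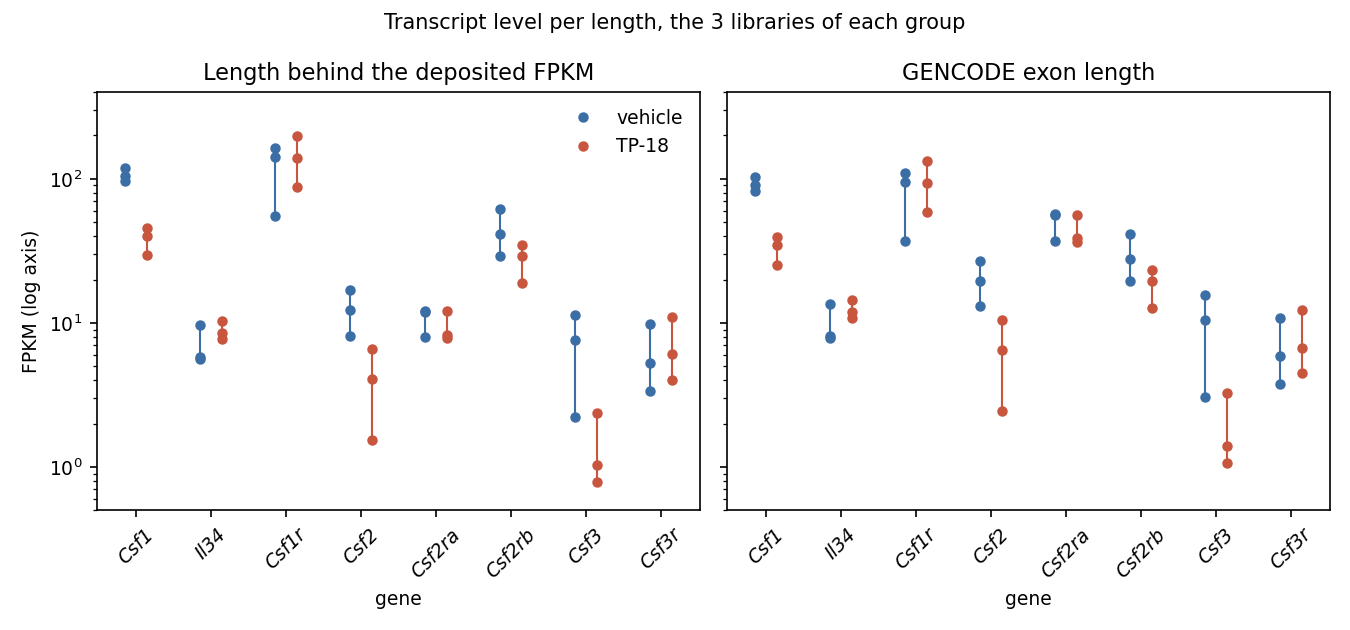
FPKM of each gene in the 3 libraries of each group (points, joined by a line from lowest to highest, log axis), with the length behind the deposited values on the left and the GENCODE exon length on the right. Csf1r is among the highest in both panels, and Csf2ra moves up to 49.8 and 43.6 FPKM in the group means on the right.

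Other genes of these pathways were taken from 7 fixed lists, together holding the signalling, target and regulator genes. edgeR called 0 of their genes in either direction, so the values that follow are levels and counts and not called changes. Among all tested genes, 8.7% were lower and 7.56% higher at an unadjusted p under 0.05. DESeq2 called 2.51% lower and 1.18% higher, and 47.4% had a negative log2 fold change in the edgeR fit. These shares are the background for the counts below. With library totals the share of negative values was not taken. CSF1R signalling had a median log2 fold change of 0.01 over its 24 genes, 12 of them negative, with 0 lower and 1 higher at an unadjusted p under 0.05 and 0 called by DESeq2. With library totals as scaling, which moves the median of all genes from 0.02 to 0.20, 4 of the 24 were negative and the list's median was 0.18. Akt1, the kinase of the PI3K pathway, stood at 249 ± 14.3 CPM in vehicle and 247 ± 28.1 in TP-18 libraries (SD, n = 3 each), and the ERK kinase gene Mapk3 at 208 ± 35.4 and 197 ± 17.4 CPM. The 2 leukocyte PI3K catalytic subunits had higher means in TP-18 libraries. Pik3cd was at 29.1 ± 14.1 and 54.3 ± 19.2 CPM with overlap, and Pik3cg at 13.0, 6.17 and 11.3 CPM in vehicle and 19.2, 14.5 and 29.2 CPM in TP-18 replicates without overlap.

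The JAK-STAT list of the GM-CSF and G-CSF receptors had a median of -0.21 over 14 genes, 10 of them negative, with 4 lower and 1 higher at an unadjusted p under 0.05. DESeq2 called 3 of them lower. With library totals 8 of the 14 were negative and the list's median was -0.03. Jak2, the kinase bound to the common beta chain, stood at 169 ± 11.4 CPM in vehicle and 107 ± 16.2 in TP-18 libraries. Cish, a feedback inhibitor induced by STAT5, stood at 9.52 ± 2.45 and 3.74 ± 0.545 CPM. Neither gene overlapped between groups. Socs3, the feedback inhibitor of the G-CSF receptor, stood at 647 ± 141 and 424 ± 134 CPM with overlap, and the survival gene Mcl1 at 1278 ± 95.6 and 1107 ± 116 CPM (SD, n = 3 each).

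Beside Csf2rb2, the beta chain family held Il3ra, the IL-3 receptor alpha chain, at 12.4 ± 2.62 CPM in vehicle and 10.9 ± 3.49 in TP-18 libraries. These 2 of the 5 listed genes passed the filter, with a median of -0.57; 1 was lower at an unadjusted p under 0.05 and 0 were called by DESeq2. The GM-CSF responsive list had a median of 0.03 over 7 tested genes of 8. That median has no stable sign: it was 0.73 without vehicle 1 and -0.58 without TP-18 3, -0.51 without vehicle 2 and -0.28 without vehicle 3, and 0.56 with voom. In it 2 were lower and 1 higher at an unadjusted p under 0.05, and DESeq2 called 0. Irf4 stood at 7.25 ± 6.53 and 2.19 ± 0.452 CPM, Bhlhe40 at 516 ± 120.2 and 362 ± 78.2 CPM, and Pparg at 3.34 ± 1.01 and 5.86 ± 1.27 CPM, each with overlap. Cd74, the invariant chain, stood at 689 ± 841 and 706 ± 645 CPM, a spread larger than its mean in vehicle.

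Transcription factors of Csf1r and the macrophage lineage had a median of -0.50 over 10 genes, 8 of them negative, with 3 lower and 0 higher at an unadjusted p under 0.05 and 1 called lower by DESeq2. With library totals 6 of the 10 were negative and the median was -0.32. The gene called by DESeq2 was Cebpb, at 317 ± 34.3 CPM in vehicle and 193 ± 12.9 in TP-18 libraries (SD, n = 3 each). Ets2 stood at 364 ± 66.3 and 267 ± 31.4 CPM, also apart. Among the genes of CSF1 shedding and other IL-34 receptors, the sheddase Adam17 stood at 143 ± 27.3 and 145 ± 24.5 CPM. Rhbdf2, the partner that carries that sheddase to the cell surface, stood at 118 ± 17.8 and 66.7 ± 9.17 CPM without overlap, and DESeq2 called it lower. Sdc1, a proteoglycan that binds IL-34, stood at 43.9 ± 31.2 and 31.4 ± 4.50 CPM, and Ptprz1, another IL-34 receptor, was near 0 in both groups. The median of the 3 tested genes of 4 was -0.48, with 1 lower and 0 higher at an unadjusted p under 0.05. It was -0.14 without vehicle 2 and -0.78 without vehicle 1, -0.24 with voom and -0.07 on log2(FPKM + 0.1). The Sdc1 value, a log2 fold change of -0.48, was 0.23 without vehicle 2.

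The list of transcription and mRNA decay regulators of the factors' genes had a median of -0.38 over 19 genes, 15 of them negative. In it 8 genes were lower and 0 higher at an unadjusted p under 0.05, and DESeq2 called 5 lower. With library totals 13 of the 19 were negative and the median was -0.20. Rela, the p65 subunit of NF-kB, was at 249, 249.9 and 301 CPM in vehicle and at 152, 124 and 145 CPM in TP-18 replicates. Zc3h12a, which encodes an RNase that degrades cytokine transcripts, was at 196, 159 and 204 CPM in vehicle and at 95.7, 70.8 and 86.3 CPM in TP-18 replicates. Both were lower in every TP-18 library, with log2 fold changes of -0.93 ± 0.15 and -1.14 ± 0.17 (SE) and edgeR adjusted p = 0.0863 and 0.0756. Without the low-count filter edgeR called Zc3h12a, with an adjusted p = 0.0437. Jun, a subunit of AP-1, stood at 1507 ± 241 and 1135 ± 188 CPM, and Zfp36, a decay factor of AU-rich transcripts, at 760.3 ± 100.4 and 617 ± 212 CPM (SD, n = 3 each), both with overlap.

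**Figure D5:**
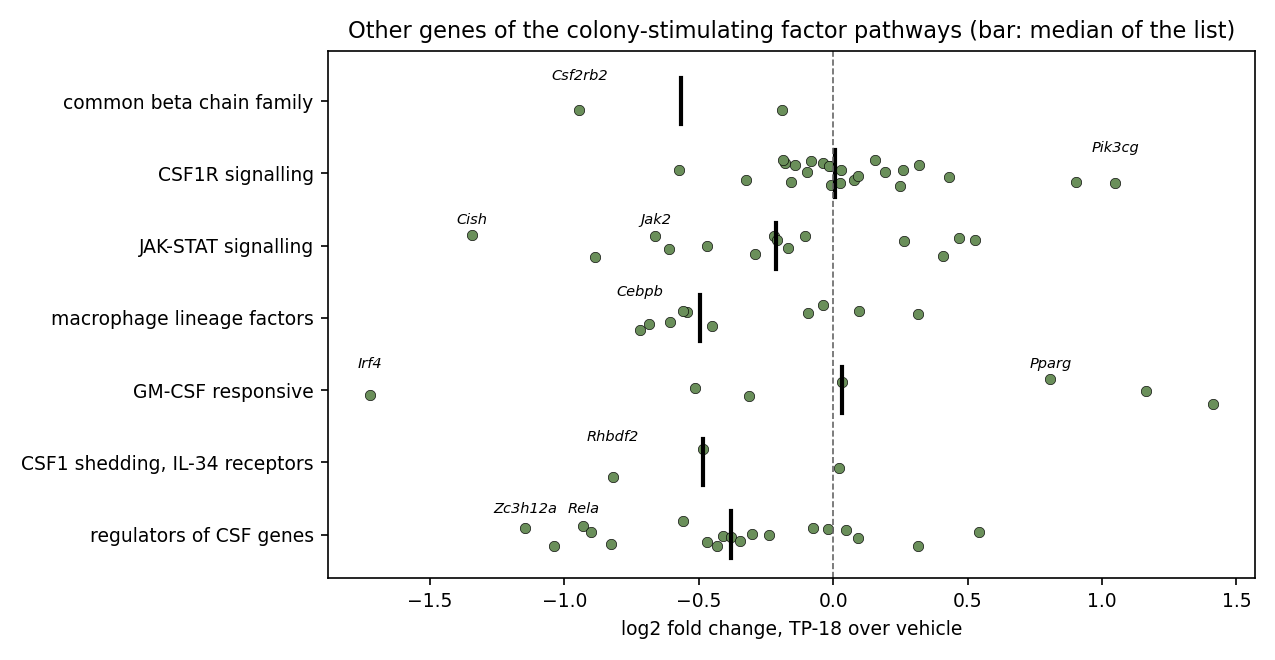
Log2 fold change of TP-18 over vehicle for each tested gene of the 7 pathway lists (points) with the median of each list (black bar). The medians run from -0.57 in the beta chain family to 0.03 in the GM-CSF responsive list, beside 0.02 over all tested genes, and none of the points was called by edgeR.

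Beside these levels stand the markers of other cells, of which edgeR called 0 in either direction. Their counts below stand beside 7.56% of all tested genes higher and 8.7% lower at an unadjusted p under 0.05, and beside 1.18% and 2.51% called by DESeq2. The 7 fibroblast markers summed to 717 to 1158 CPM in vehicle and 1442 to 1797 CPM in TP-18 libraries, with Col1a2 and Col3a1 the most abundant and none at 0; 6 were higher at an unadjusted p under 0.05, and DESeq2 called 4. The 5 mast cell markers summed to 0.189 to 4.12 and 7.70 to 26.6 CPM, led by Tpsb2 and Cpa3, with 3 at 0 in some library; 4 were higher at an unadjusted p under 0.05, and DESeq2 called 3. The 6 dendritic cell markers summed to 8.37 to 14.3 and 4.94 to 6.28 CPM, led by Zbtb46 and Ccr7, with 3 at 0 in some library; 1 was lower at an unadjusted p under 0.05, and DESeq2 called 1. For these 3 lists the sums of the groups did not overlap. The part of these cells in the levels of the ligand genes was not tested.

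The sums of the other lists overlapped, though some of their markers did not. They ran from 103 to 927 CPM in vehicle and 135 to 471 CPM in TP-18 libraries for 4 monocyte markers, led by Chil3 and Plac8. Ccr2, the chemokine receptor of monocytes, was at 31.1, 17.1 and 11.7 CPM in vehicle and 40.3, 32.6 and 112 CPM in TP-18 replicates, apart between groups and called higher by DESeq2 (adjusted p = 0.0203). Of the other monocyte markers, Chil3 and Ly6c2 had negative log2 fold changes of -1.51 and -0.36, and Plac8 had 0.03. The median of the monocyte list was -0.16. For 5 endothelial markers, led by Pecam1 and Plvap, the sums ran from 31.0 to 149.6 and from 90.9 to 163 CPM. Kdr, a VEGF receptor, was at 9.34, 9.82 and 11.3 CPM in vehicle and 27.9, 21.4 and 20.5 CPM in TP-18 replicates, also apart and called higher by DESeq2 (adjusted p = 9.9e-05). The 8 T and NK cell markers, led by Cd3e and Cd8a, summed to 3.27 to 18.6 and 3.42 to 17.1 CPM. The 4 B cell markers, led by Cd79b and Cd79a, summed to 1.20 to 3.93 and 2.44 to 8.30 CPM. The 6 carcinoma markers, led by Krt20 and Krt18, summed to 344 to 532 and 247 to 512 CPM. Cd4 of the T and NK cell list and Cdh1 of the carcinoma list, both under 5 CPM, were also higher in every TP-18 library, at an unadjusted p of 0.0191 and 0.048, and DESeq2 called neither.

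Csf1 was also set against 3 abundant marker genes within each library. Its FPKM ratio to Itgam was 0.633, 0.598 and 0.403 in vehicle and 0.247, 0.155 and 0.172 in TP-18 replicates. Its ratio to Krt20 was 0.535, 0.383 and 0.653 in vehicle and 0.168, 0.106 and 0.305 in TP-18 replicates. Its ratio to Col1a2, whose own level was higher in TP-18 libraries, was 0.832, 1.08 and 1.18 in vehicle and 0.201, 0.159 and 0.205 in TP-18 replicates. All 3 ratios were lower in every TP-18 library than in every vehicle library. The set was proposed because Csf1 was called lower, so these ratios restate its values and are no further support. Which cells the Csf1 reads came from was not tested.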

How the data were processed

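RNA was profiled in 3 vehicle and 3 TP-18 libraries, for which the labels' protocols name the VAHTS Universal V6 kit; groups and replicate numbers come from the sample labels. The authors deposited raw counts per gene and, in a second table, FPKM values. The submitters' processing notes list fastp, HISAT2, HTSeq and GRCm38. Versions, annotation release and strand use are not given in the sources used here. Each deposited FPKM value is the count over the total count and 1 length per gene, checked on all 17191 genes.

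The main test on counts was that of edgeR 4.0.16 under R 4.3.3 (filterByExpr, minimum count 10 and total 15, TMM factors of 0.924 to 0.962 in vehicle and 1.05 to 1.07 in TP-18 libraries, quasi-likelihood test without covariates). Benjamini-Hochberg adjustment ran over 12721 genes, and the threshold was 0.05. TMM-scaled totals entered all CPM values. In simulated counts for the same comparison (12595 genes) the test found 4 of 66 genes set to change 1.5-fold, 17 of 65 set to 2-fold and 58 of 66 set to 4-fold, and 8 of 87 calls were unchanged genes. Within a group no library was a copy of another, since counts differed beyond sampling noise. Pairs across groups were not compared in this way.

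The genes, lists and rules were chosen with earlier results of these data known. Named were every member, from each pathway list its called genes or otherwise the 2 most abundant and the 2 with the smallest unadjusted p, from each marker list the 2 most abundant, and the 5 genes most like Csf1 and Csf1r. Krt19, Epcam, Hspa1a, Ptprz1, Ccr2, Ly6c2, Kdr, Cd4, Cdh1, Mpo, S100a9, Ngp, Retnlg and 7 further macrophage markers were named besides, after their values were seen. Il3 and Ly6g had no row under these symbols. The values of 1 gene that the rule names are not reported here. Alternatives were RLE factors, library totals, 2 other filters, DESeq2 1.42.0, voom and limma 3.58.1 on log2(FPKM + 1) and log2(FPKM + 0.1), a replicate block, each library left out and, for levels, other lengths. Positions and coding sequences are from GENCODE M21 (the longest open reading frame), promoter windows from RefSeq. Sequences were compared in Python 3.11.15 with Biopython 1.88, and figures were drawn with matplotlib 3.10.9.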

Additional observations from a re-analysis of the deposited data

How the results depend on the processing

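Csf1 was lower in 15 of 15 alternatives (log2 fold change -1.80 to -1.47; adjusted p from 2.098e-12 with DESeq2 to 0.1905) and was called in 5. The call was lost with library totals as scaling (-1.48, adjusted p = 0.0651), with limma on log2(FPKM + 1) (-1.47, 0.0565) and log2(FPKM + 0.1) (-1.49, 0.0644), with the replicate block (-1.67, 0.0502) and without any 1 library (-1.80 to -1.49). Csf2, Csf3, Csf2rb and Csf2ra were negative in 15 of 15, and Csf2 and Csf3 were called by DESeq2 only. Il34, Csf1r and Csf3r were negative in 1, 2 and 3 of 15, without a call. Library totals moved the all-gene median from 0.02 to 0.20 (log2), and the Akt1 value, -0.01 in the edgeR fit, was 0.17 with them. Over all genes edgeR called 11 lower and 3 higher. Library totals gave 1 lower, no filter 20 and 7, DESeq2 339 and 160, and both limma fits on FPKM 1 and 1. The replicate block gave 0 lower (1943 genes at an unadjusted p under 0.05 beside 2069 without it). Without 1 library the counts were 0 to 5 lower and 0 to 3 higher. Same-numbered libraries deviated together at r of 0.161, 0.390 and -0.152, so the numbers were not taken as pairs. A shared order of replicate numbers in the groups is therefore description only. With the replicate block the SE fell from 0.42 to 0.203 for Csf1r and from 0.32 to 0.205 for Csf2rb. It rose from 0.50 to 0.559 for Csf2, and none of these genes was called. Length-scaled TMM CPM kept 16 of 16 places in the order of levels, and GENCODE exon lengths kept 6. Csf3 rests on 26 to 80 reads per TP-18 library and Csf2 on 34 to 144. Without 1 library the list medians ran from -0.38 to -0.11 for JAK-STAT signalling, from -0.52 to -0.29 for the lineage factors, from -0.48 to -0.33 for the regulators, from -0.76 to -0.43 for the beta chain family and from -0.05 to 0.04 for CSF1R signalling. Without a filter all 17191 genes were tested; the cause of the other shifts was not tested.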
